A study of Mus musculus with 2 samples.

Results

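Open chromatin was examined at 8 mouse genes of antigen presentation: the class II genes H2-Aa, H2-Ab1, H2-Eb1, H2-Eb2, H2-DMa and H2-DMb1 on chromosome 17, Cd74 on chromosome 18 and Ciita on chromosome 16. They are 8 of the 21815 protein-coding genes with a single symbol in GENCODE M21 (mm10), and were chosen as named genes, not by a threshold on their signal. The samples were 2 DNase-seq libraries of adrenal gland, 1 from each of 2 male B6CASTF1/J mice, F1 hybrids of the strains named B6 and CAST, aged 25 days and given no treatment that the labels mention. DNase-seq cuts the DNA of nuclei with the enzyme DNase I, and a stretch cut often is a DNase I hypersensitive site (DHS). For each gene the DHSs touching its body or the 20 kb on either side were taken from the longer deposited peak list of each library. There were 47 such DHSs of 130945 in replicate 1 and 60 of 157786 in replicate 2, which merged into 67 sites. Both libraries form 1 group, so no groups were tested, and a difference between them is a spread between samples. The labels number the mice separately but give them 1 donor code. In whole tissue, a site open in fewer cells and a site less open in each cell cannot be told apart.

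Class II molecules are pairs of an alpha and a beta chain that carry peptides from engulfed material to CD4 T cells. H2-Aa and H2-Ab1 encode the chains of I-A, and H2-Eb1 the beta chain of I-E, whose alpha chain gene is inactive in the B6 strain. Cd74, the invariant chain, fills the peptide groove until H2-DMa and H2-DMb1, the chains of H2-M, help to load a peptide. They are expressed mainly by dendritic cells, B cells and macrophages, and interferon gamma can induce it in other cells. Their promoters share an X box, bound by the RFX complex and CREB, and a Y box, bound by NF-Y. CIITA, the product of Ciita, binds no DNA itself and switches the genes on through those bound factors.

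The letters of these boxes were sought in the reference genome (GRCm38.p6, the mm10 assembly) as the X core ACNGATG followed on the same strand by the Y box ATTGG, 15 to 45 bases further on, on either strand within 250 bases before to 50 after a coding start. The pair was found at 4 of the 8 genes, against 0.436% of 21802 genes on the assembled chromosomes. The 4 stretches are shown from 10 bases before the X core to 10 after the Y box, on the plus strand, which is the strand of each gene, with the X core and Y box in capitals.
H2-Ab1, chr17:34263143-34263196: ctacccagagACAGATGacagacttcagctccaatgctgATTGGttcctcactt
H2-Eb1, chr17:34305769-34305822: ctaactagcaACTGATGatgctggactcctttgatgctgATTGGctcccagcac
H2-Eb2, chr17:34325536-34325589: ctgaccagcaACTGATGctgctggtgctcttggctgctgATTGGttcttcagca
H2-DMa, chr17:34135507-34135561: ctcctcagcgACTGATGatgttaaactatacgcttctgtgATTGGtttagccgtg
The first 3 have 22 bases between the boxes, and H2-DMa has 23. Position by position, the H2-Eb1 and H2-Eb2 stretches share 37 of 54 letters, and H2-Ab1 shares 31 of 54 with each of them. The X core begins 56 bases upstream of the nearest coding start in H2-Ab1, 88 in H2-Eb1, 119 in H2-Eb2 and 111 in H2-DMa. With 1 mismatch allowed in the X core the same 4 genes held the pair, but so did 7.75% of all genes.

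H2-Aa held no X core with this spacing. Its promoter DHS in replicate 1, chr17:34287781-34287980, is shown whole on the minus strand, which is that of the gene, because it holds both a Y box and TGACGTCA, the palindrome that CREB binds, both in capitals.
H2-Aa promoter DHS: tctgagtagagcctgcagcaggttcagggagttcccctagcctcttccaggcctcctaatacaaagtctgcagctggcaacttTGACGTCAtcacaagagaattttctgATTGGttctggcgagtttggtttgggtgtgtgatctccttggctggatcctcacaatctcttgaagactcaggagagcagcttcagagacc
TGACGTCA begins 74 bases upstream of the gene's 5' end and ATTGG 48 bases upstream. H2-Eb1, whose promoter DHS was the highest among the A and E chain genes in both libraries, is shown in the same way on the plus strand, chr17:34305701-34305900, with X core and Y box in capitals.
H2-Eb1 promoter DHS: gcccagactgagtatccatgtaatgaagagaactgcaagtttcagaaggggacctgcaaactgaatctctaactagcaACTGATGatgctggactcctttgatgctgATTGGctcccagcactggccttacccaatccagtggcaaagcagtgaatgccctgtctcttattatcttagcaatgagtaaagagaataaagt
Both of these DHSs were called in both libraries, the H2-Eb1 one with identical ends.

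A promoter was called open when a DHS reached within 1 kb of a coding start, and its height is the deposited signal of the strongest such DHS. In replicate 1 the open promoters were those of H2-Aa, H2-Ab1, H2-Eb1, H2-Eb2, H2-DMa and H2-DMb1, 6 of 8, where 69.4% of all genes were open. Replicate 2 also had 6 of 8 open, Cd74 in place of H2-DMb1, against 69.1% of all genes. The count open in both libraries was 5 of 8, against 65.8%. Ciita, the regulator, had no promoter DHS in either. These shares are near those of all genes.

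Heights were whole multiples of a step of 0.00833 in replicate 1 and 0.00888 in replicate 2, within 0.01 of a step. If a step is 1 count, the library totals were 120 M and 113 M counts. The 95% Poisson intervals given below rest on that reading and cover counting error only, not the spread between mice.

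The promoter DHSs of the I-A and I-E chain genes were below the median of open promoters, which was 8.85 in replicate 1 and 6.25 in replicate 2 over all genes, and above the median of all DHSs, 1.01 and 0.72. H2-Eb1 stood at 3.65 (3.32 to 4.01) in replicate 1 and 2.58 (2.30 to 2.90) in replicate 2. H2-Aa stood at 2.45 (2.18 to 2.75) and 1.40 (1.19 to 1.64), in the same order of libraries. For H2-Ab1 the heights were 1.78 (1.55 to 2.04) and 1.49 (1.28 to 1.74). Replicate 2 was thus the lower library for all 3, with counting intervals that overlapped for H2-Ab1 alone. H2-Eb2, a beta chain gene close to H2-Eb1 in sequence, went the other way. It stood at 0.592 (0.462 to 0.746) in replicate 1 and 2.01 (1.75 to 2.29) in replicate 2, a log2 ratio of 1.76 (1.37 to 2.17). How reads of the similar pairs H2-Eb1 and H2-Eb2, or H2-DMb1 and H2-DMb2, were placed by the authors was not tested, nor was the placing of reads from the CAST copy of any gene.

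H2-DMa had the highest promoter DHS of the 8 genes in both libraries, at 22.2 (21.3 to 23.0) in replicate 1 and 14.7 (14.0 to 15.5) in replicate 2. The 2 values belong to different starts of the gene. In replicate 1 it was chr17:34135321-34135480, before the inner coding starts at 34135628 and 34135654, which stood at 14.5 in replicate 2. In replicate 2 it was chr17:34122561-34122800, before the outer coding start at 34122832, which stood at 18.6 in replicate 1. The latter DHS covers a start of Brd2 at 34122600, on the opposite strand, and ends short of the H2-DMa start. Brd2 is a widely expressed chromatin reader, and the DHS, also its promoter DHS, cannot be assigned to H2-DMa alone. H2-DMb1, the partner chain, had a DHS of 0.633 (0.499 to 0.793) in replicate 1 and none in replicate 2. In replicate 2 no position within 1 kb was in the deposited list of false discovery rates (FDR) of at most 0.05. In replicate 1 the lowest FDR there was 0.023, and the DHS was not in the shorter deposited peak list.

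Cd74 was open in replicate 2 alone. Its promoter DHS, chr18:60803561-60803780, had a height of 2.03 (1.77 to 2.31), with its centre 178 bases upstream of the first start. The lowest FDR there was 9.3e-08 in replicate 2, and replicate 1 had no listed position within 1 kb. An intronic DHS at chr18:60804941-60805080, centred 1154 bases downstream of the second start and so outside the promoter window, was found in both, at 0.867 in replicate 1 and 1.5 in replicate 2. A further intronic site, chr18:60805833-60805957, was found in replicate 2 alone at 1.14. The 3 DHSs at the promoter and within the gene were thus higher in replicate 2 or present there alone.

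In order of promoter height, replicate 1 gave H2-DMa, H2-Eb1, H2-Aa, H2-Ab1, H2-DMb1 and H2-Eb2, of which only the neighbours H2-DMb1 and H2-Eb2 overlapped in their counting intervals. For replicate 2 the order was H2-DMa, H2-Eb1, Cd74, H2-Eb2, H2-Ab1 and H2-Aa. There, H2-Eb1 overlapped with Cd74, Cd74 with H2-Eb2, and H2-Ab1 with H2-Aa. The 3 genes outside the windows whose promoter heights lay nearest to those of H2-DMa were Ubtd2 (22.2 and 14.6), Cox15 (22.3 and 14.9) and Cutc (22.3 and 14.9), by Euclidean distance of log2(height + 0.1) over the 2 libraries, at most 0.0159 away. Cox15 and Cutc have the same heights in both libraries. With 2 libraries such likeness describes level and little else. The H2-DMa heights compared here also come from a different DHS in each library, as described above.

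**Figure D1:**
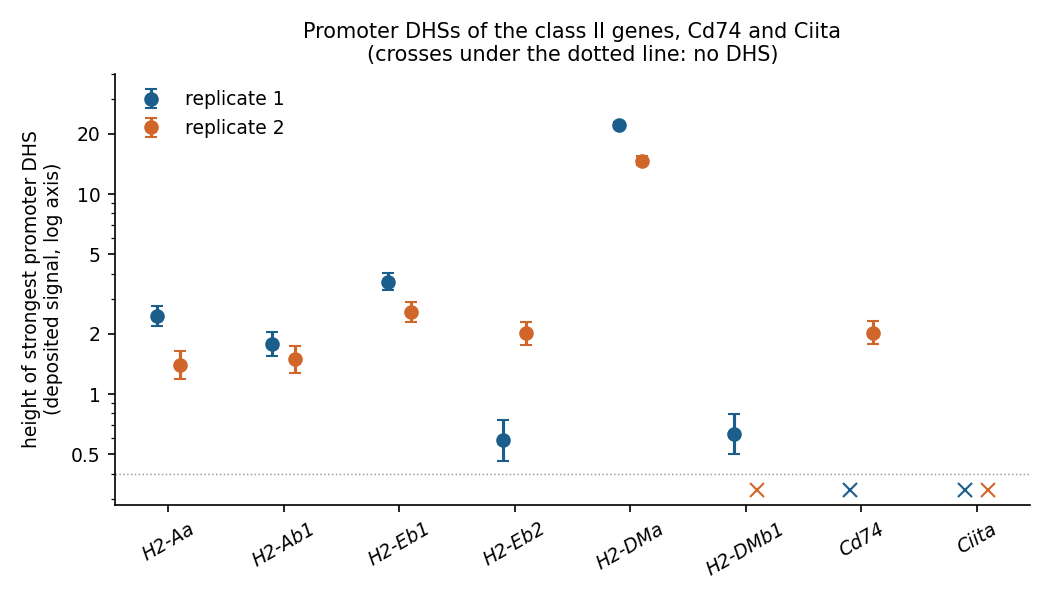
Height of the strongest DHS within 1 kb of a coding start (deposited signal, log axis) for the 8 genes, replicate 1 in blue and replicate 2 in orange, with 95% counting intervals as bars. H2-DMa stands at 22.2 and 14.7 and no other gene above 3.65, and crosses under the dotted line mark promoters with no DHS: H2-DMb1 in replicate 2, Cd74 in replicate 1 and Ciita in both.

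Ciita has 6 coding starts in the annotation, between 10480059 and 10489783 on chromosome 16, and is read from alternative promoters in different cell types. No DHS lay within 1 kb of any of them in either library. The FDR list of replicate 1 held 21 bases within 1 kb of the 3 most downstream starts, with a lowest FDR of 0.035, and none near the other 3. The list of replicate 2 held none near any of the 6. Of all 8 genes, 7 had a listed position within 1 kb of a start in replicate 1, where 70.0% of all genes did, and 6 in replicate 2, where 70.4% did.

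Within the Ciita body, sites lay further downstream. From the last start, the nearest was centred 8588 bases away in replicate 1 and 26528 bases away in replicate 2. The highest DHS inside this gene in replicate 1, and the highest by mean of those called in both libraries, is shown for that reason. It was intronic at chr16:10522961-10523100, with heights of 3.46 (3.13 to 3.81) in replicate 1 and 1.02 (0.843 to 1.23) in replicate 2. It is printed on the plus strand.
Ciita intronic DHS: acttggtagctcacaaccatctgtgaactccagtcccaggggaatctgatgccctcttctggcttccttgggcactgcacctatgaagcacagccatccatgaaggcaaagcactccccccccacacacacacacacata
It ends in a run of CA repeats, and none of the motifs searched was found in it. A second intronic site, chr16:10521301-10521500, stood at 2.83 and 0.879. Log2 ratios of replicate 2 over replicate 1 were -1.76 and -1.69 for these sites, the former being the lowest among the windows' pairs. Replicate 1 alone had the intronic sites chr16:10501921-10502120 (2.54) and chr16:10498322-10498420 (0.775), and chr16:10510901-10511100 (1.95) over an exon. Replicate 2 alone had the intronic chr16:10516141-10516480 at 2.03, its highest DHS inside the gene. Dexi, on the opposite strand, overlaps the downstream portion of Ciita, so the Ciita sites from 10510901 on lie in both genes. The promoters of Dexi (11.8 and 11.1) and Clec16a (12.2 and 12.0), at the far edge of the window, were the highest DHSs there and nearly equal between libraries.

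**Figure D2:**
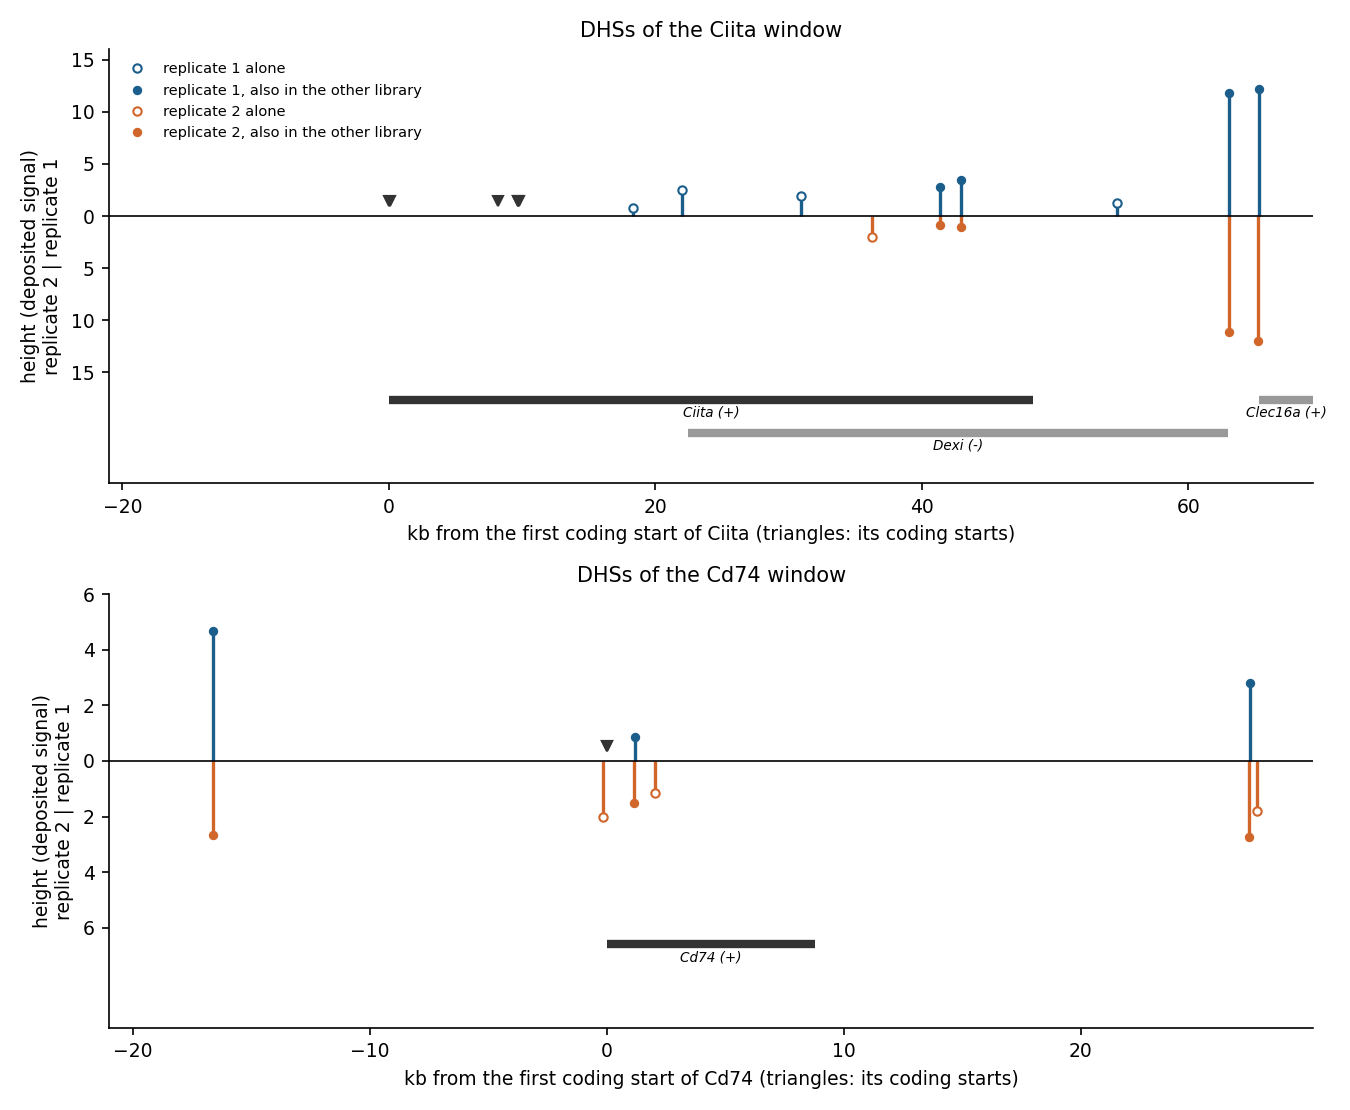
Heights (deposited signal) of the DHSs of the Ciita window (top) and the Cd74 window (bottom) against distance in kb from each gene's first coding start, replicate 1 upward and replicate 2 downward. Filled circles are sites called in both libraries and open circles in 1 alone, triangles mark coding starts and bars mark genes. No stem stands near the Ciita starts, and at the Cd74 starts the DHS of 2.03 points down only.

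Intergenic DHSs were more numerous and lower in replicate 2. There were 9 intergenic DHSs of 47 in replicate 1 and 16 of 60 in replicate 2, with median heights of 2.58 and 1.23. The whole peak list of replicate 2 was longer too, at 157786 DHSs against 130945, with a median height of 0.72 against 1.01. No intergenic share over all DHSs was set beside these counts, so they do not mark out the windows. Among the 5 intergenic sites of highest mean height, chr17:34101601-34101760 was first, at 14.6 (13.9 to 15.3) and 6.24 (5.79 to 6.72), 9340 bases downstream of the start of H2-Oa, which encodes a chain of the H2-M inhibitor H2-O. Next on this chromosome were chr17:34170881-34171060 (4.86 and 3.23) between H2-DMb1 and Psmb9, chr17:34291681-34291860 (3.46 and 1.27) between H2-Aa and H2-Eb1, and chr17:34349561-34349720 (2.58 and 1.08) between H2-Eb2 and Btnl2. Each of the 4 was lower in replicate 2, by log2 ratios of -1.23, -0.59, -1.44 and -1.25.

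The first of these sites and the inner H2-DMa DHS are shown on the plus strand, because both match the consensus of CTCF, a factor that anchors chromatin loops, once its last letter is left free. That free form was chosen after the sequences were seen, and its match is in capitals.
Intergenic DHS, chr17:34101601-34101760: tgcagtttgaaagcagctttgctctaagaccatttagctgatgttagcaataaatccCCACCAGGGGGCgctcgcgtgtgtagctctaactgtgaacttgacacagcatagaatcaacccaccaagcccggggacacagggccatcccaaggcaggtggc
H2-DMa inner DHS, chr17:34135321-34135480: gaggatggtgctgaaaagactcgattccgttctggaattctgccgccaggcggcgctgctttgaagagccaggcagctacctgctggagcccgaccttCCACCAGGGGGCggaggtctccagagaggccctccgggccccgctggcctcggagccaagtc
With the full consensus, 2 of 47 DHSs in replicate 1 and 2 of 60 in replicate 2 matched, or 4.26% and 3.33%, beside 2.45% and 1.59% of all DHSs. With the last letter free, 6 and 6 matched, or 12.8% and 10%, beside 4.53% and 3.02%. They were the same 6 sites in both libraries, and 4 of the 5 highest intergenic sites were among them. A match describes the letters and not a bound factor.

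The fifth of those intergenic sites lay upstream of Cd74, at chr18:60787161-60787340, with 4.68 (4.30 to 5.09) in replicate 1 and 2.66 (2.36 to 2.97) in replicate 2. It matched the full consensus of CTCF.

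H2-Eb1 and H2-Ab1 each held a site within the gene that was higher than the promoter in both libraries. In H2-Eb1, chr17:34309841-34310000 over an exon stood at 5.32 and 3.85, where the promoter had 3.65 and 2.58. The intronic chr17:34313541-34313700 was above the promoter in replicate 1 alone, at 4.09 and 1.85. At H2-Ab1, chr17:34257681-34257860 stood at 4.40 and 2.19, above the promoter's 1.78 and 1.49. It covers the first base, 34257689, of a transcript annotated as noncoding, and its centre lies 5438 bases upstream of the first coding start. Counting the gene's 5' end in place of its coding starts would make it the H2-Ab1 promoter, above that of H2-Eb1 in replicate 1 but not in replicate 2.

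The DHSs of each gene's window, neighbours included, numbered 7 in replicate 1 and 15 in replicate 2 for H2-Aa, 7 and 12 for H2-Ab1, 9 and 15 for H2-Eb1 and 7 and 9 for H2-Eb2. H2-DMa had 17 and 17, H2-DMb1 8 and 6, Cd74 3 and 6 and Ciita 8 and 5, beside a median of 6 per gene over all genes in each library. The windows of neighbouring genes overlap, so a DHS can count in several. Replicate 2 had more DHSs at the 4 chain genes and Cd74, and fewer at H2-DMb1 and Ciita.

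The annotated body of H2-DMa overlaps Brd2, and several DHSs of its window lie over both genes or at Brd2 starts. The sites over Brd2 promoters and exons included chr17:34119261-34119640 (18.2 and 12.8), chr17:34119721-34119940 (9.60 and 8.63) and chr17:34120381-34120580 (10.2 and 5.67). The intronic site chr17:34127581-34127760, past the end of Brd2 and within H2-DMa alone, stood at 2.53 and 1.72. Between H2-DMa and H2-DMb1, replicate 1 alone had the intergenic chr17:34139501-34139624 (0.850) and chr17:34150197-34150287 in an intron of H2-DMb2 (0.642). The only sites of these windows at least 2-fold higher in replicate 2 were the H2-DMb2 promoter and the intergenic site downstream of H2-DMb1 given below.

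Weaker sites of the A and E genes were spread over their bodies. H2-Aa had 1 DHS beside its promoter, chr17:34285961-34286120 over an exon, at 1.67 and 1.5, and this was the 1 DHS of all windows with CAAGGTCA, the site bound by the adrenal regulator Nr5a1 and its relatives, which 2.75% and 2.24% of all DHSs held. It also matched the full consensus of CTCF. H2-Eb1 had a second promoter site, chr17:34304901-34305070, at 1.03 in both libraries, and a further one, chr17:34306537-34306660, in replicate 2 alone at 1.15. In H2-Ab1 the intronic chr17:34261561-34261740 was nearly equal between libraries at 2.27 and 2.24, while chr17:34264801-34265100 over an exon stood at 1 and 0.524. H2-Eb2 had no DHS within its body other than the one at its start.

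A run of weak intergenic sites between H2-Aa and H2-Eb1 was seen in replicate 2. Over this stretch of 18 kb, replicate 1 had 1 intergenic DHS and replicate 2 had 6, of which 5 were in replicate 2 alone. Those 5 stood at 1.13, 1.63, 1.07, 1.53 and 0.826, going from H2-Aa towards H2-Eb1. None of them held a position of the FDR list of replicate 1. Around the A and E genes as a whole, replicate 1 had 16 DHSs with a summed height of 36.4, and replicate 2 had 28 with 37.7. Of these, 15 were shared in each library, so 1 DHS in replicate 1 and 13 in replicate 2 had no partner. The shared part was 93.8% in replicate 1, beside 62.2% of all DHSs, and 53.6% in replicate 2, near the 51.8% of all DHSs. Around the DM genes the libraries were closer in number, with 20 DHSs in replicate 1, 21 in replicate 2 and 17 shared in each.

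**Figure D3:**
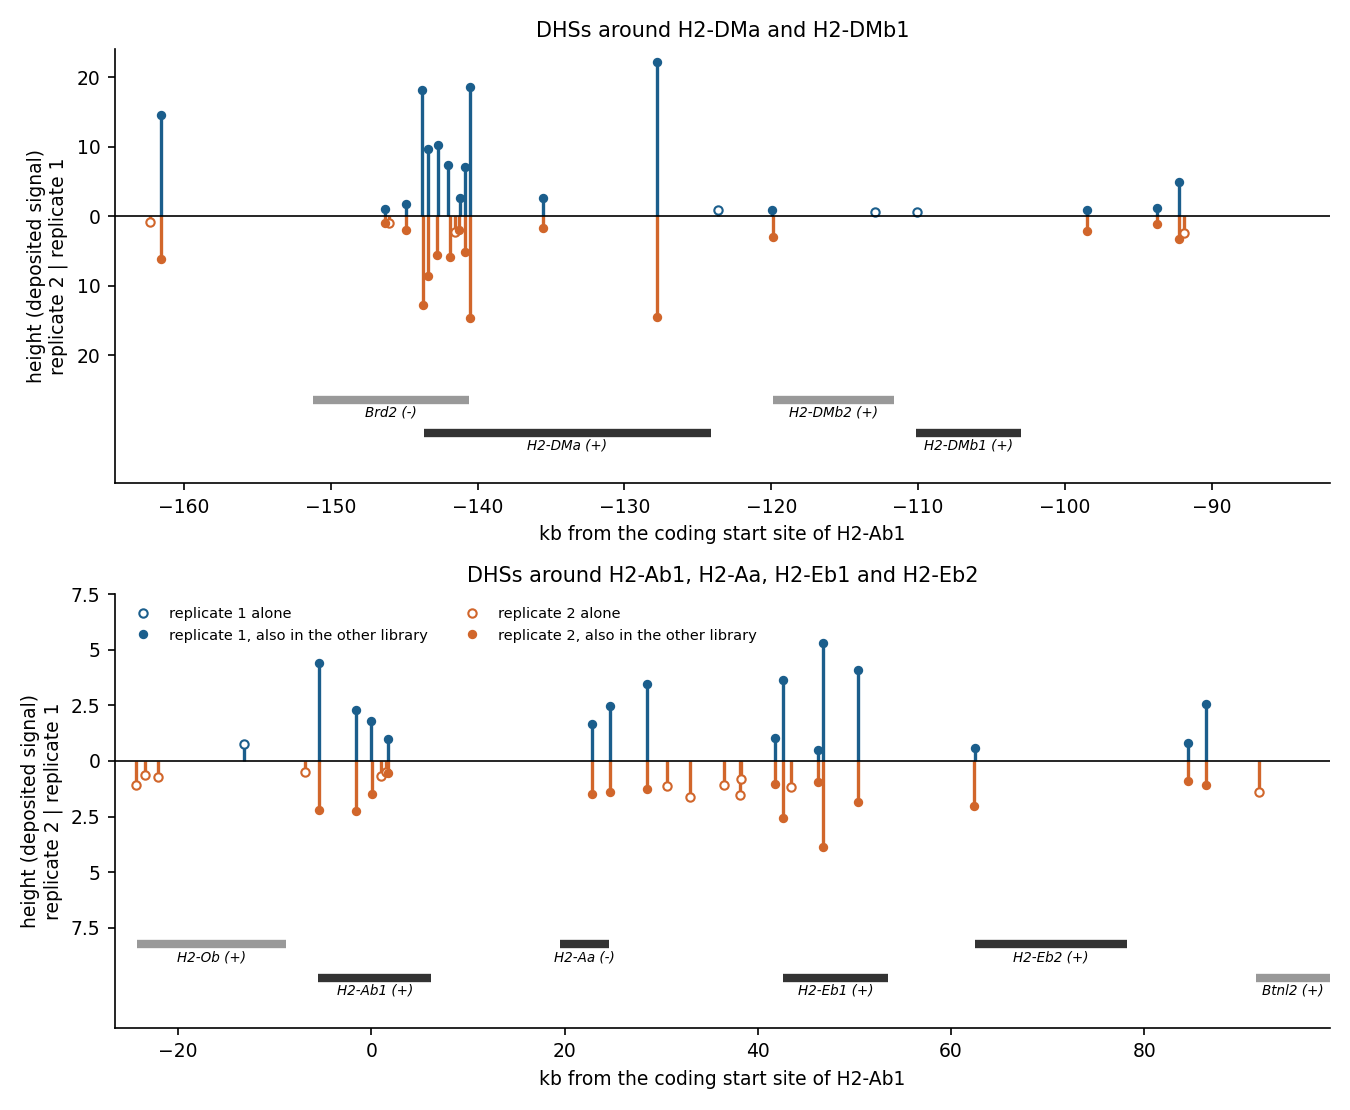
Heights (deposited signal) of the DHSs around H2-DMa and H2-DMb1 (top) and around the A and E chain genes (bottom) against distance in kb from the first coding start of H2-Ab1, replicate 1 upward and replicate 2 downward, with filled circles for sites in both libraries and open circles for sites in 1 alone. The vertical scales differ. Black bars are genes described here and grey bars their neighbours, and the 5 open orange circles between H2-Aa and H2-Eb1 are the sites of 0.826 to 1.63.

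Over all windows, 39 of 47 DHSs of replicate 1 overlapped a DHS of replicate 2, or 83.0% (95% Wilson interval 69.9 to 91.1), beside 62.2% of all DHSs. In the other direction it was 39 of 60, or 65.0% (52.4 to 75.8), beside 51.8%. The DHSs of the windows were also higher than most, with medians of 2.54 and 1.68 against 1.01 and 0.72 for all DHSs. Of the 67 sites, 8 were in replicate 1 alone and 21 in replicate 2 alone. The other library had no listed FDR position at 8 of the 8 and at 19 of the 21. Each called DHS of the windows held listed positions in its own library, so a missing call and a missing listing are not separate evidence. No such share over all DHSs found in 1 library alone was set beside these counts. The highest sites in 1 library alone were the Ciita intronic site of 2.54 and, in replicate 2, chr17:34171221-34171380 (2.40), chr17:34121601-34121820 at a start of Brd2 (2.28), the Ciita intronic site of 2.03 and the Cd74 promoter. The Brd2 site is an exception, since replicate 1 held listed positions there, with a lowest FDR of 4.2e-10.

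Heights of overlapping pairs were compared as log2 of replicate 2 over replicate 1. Over the 40 pairs of the windows the median was -0.35 (range -1.76 to 1.76, SD 0.80), beside -0.34 (SD 0.69) over 82852 pairs in all. The windows therefore shared the genome's median shift to lower heights in replicate 2, and 31 pairs were lower there. At least 2-fold lower were 7 of 40 pairs, or 17.5%, beside 16.2% of all pairs. At least 2-fold higher in replicate 2 were 3 of 40, or 7.5%, beside 2.26%. These were the promoters of H2-Eb2 and of H2-DMb2, at 0.900 and 3.01, and the intergenic chr17:34164621-34164780 downstream of H2-DMb1, at 0.875 and 2.16. Intronic pairs had the widest spread, with an SD of 1.04 over 8 pairs, and the 9 pairs at members' promoters had a median of -0.34.

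**Figure D4:**
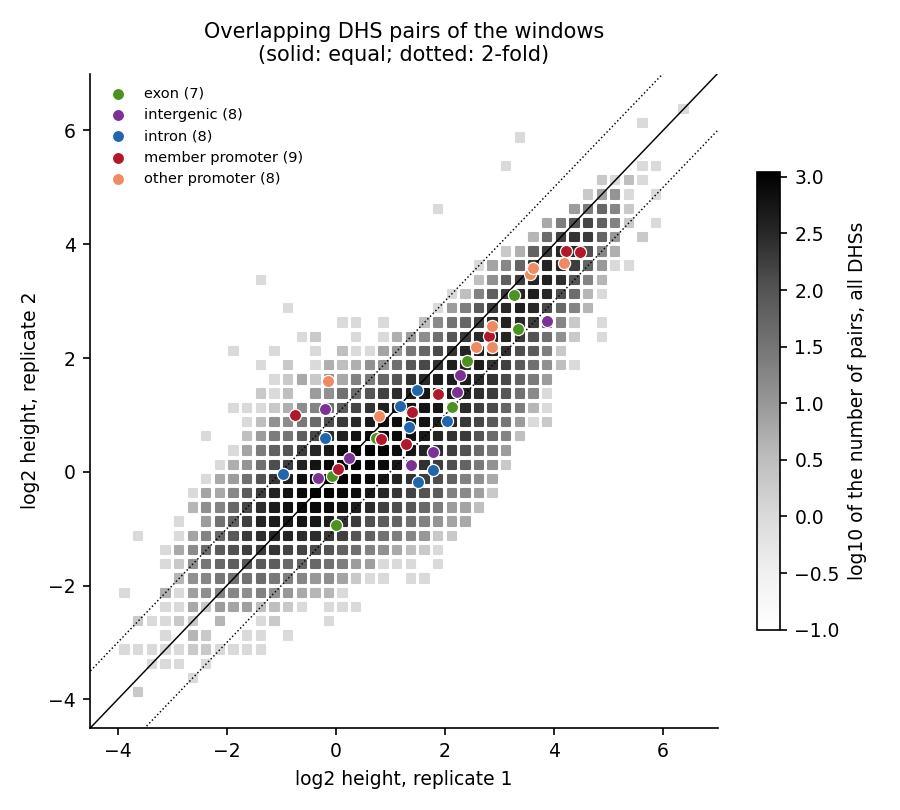
Log2 height in replicate 2 against log2 height in replicate 1 for the 40 overlapping pairs of the windows, coloured by class, over all 82852 pairs in grey bins whose shade is the log10 number of pairs. The solid line marks equal heights and the dotted lines 2-fold differences. The H2-Eb2 promoter (log2 ratio 1.76) is the red point above the upper dotted line, and 2 Ciita intronic sites (-1.69 and -1.76) are blue points below the lower one.

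Footprints, short stretches inside open chromatin that DNase I cuts less than their surroundings, touched 45 of 47 DHSs in replicate 1 (95.7%, beside 77.6% of all DHSs) and 43 of 60 in replicate 2 (71.7%, beside 63.1%). They numbered 138 and 98. The windows' DHSs were also higher than most, and footprint shares were not compared at like heights. In replicate 1, 1 footprint covered both boxes of H2-Eb1, chr17:34305769-34305818, and 1 covered both boxes of H2-Ab1, chr17:34263144-34263191. In replicate 2, separate footprints touched the H2-Eb1 boxes, chr17:34305776-34305782 on the X core and chr17:34305812-34305821 at the last base of the Y box, and none touched those of H2-Ab1. The H2-DMa X core was touched in both, by chr17:34135500-34135539 and chr17:34135519-34135525. Its Y box was touched in neither. Both boxes lie past the end of the called DHS in replicate 1, as do the Y box and part of the X core in replicate 2. At H2-Eb2 no footprint touched either box in either library, and in replicate 1 its X core lies outside the called DHS.

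The whole module lay inside a DHS at H2-Ab1 and H2-Eb1 in replicate 1, 2 of 47 DHSs, where 0.120% of all DHSs held one. In replicate 2 it also lay inside the H2-Eb2 DHS, making 3 of 60, where the background was 0.114%. These modules were sought in genes known for them, so the counts describe the promoters and are not a discovery of the motif. Among single motifs, the Y box ATTGG was in 34% and 26.7% of the windows' DHSs, beside 18.5% and 17.4% of all. TGACGTCA was in 3 DHSs of each library, or 6.38% and 5.00%, beside 0.713% and 0.598%. They were the H2-Aa promoter, the intronic Cd74 site and a Brd2 promoter DHS. GAAANNGAA, the core of the interferon-stimulated element, was in none of the 47 and none of the 60, beside 3.28% and 3.04%. TTCNNNGAA, the palindrome that STAT factors bind, was in 4 DHSs of each library, or 8.51% and 6.67%, beside 3.95% and 3.46%. GGGNNTTCC, a core of the NF-kappaB site, was in 6.38% and 6.67%, beside 3.15% and 2.82%. For TGANTCA, the AP-1 site, the shares were 8.51% and 3.33%, beside 11.5% and 9.34%.

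Genes of the surrounding pathway were nearly all open, beside 69.4% and 69.1% of all genes in the respective library. The class II transcription factors (the RFX subunits, NF-Y subunits and Creb1) were open in 7 of 7 in both libraries, for example Rfx5 at 7.83 and 7.10, Rfxank at 22.7 and 15.7 and Rfxap at 17.7 and 15.2. Along the interferon gamma route to Ciita, 9 of 9 genes were open in both, among them the receptor chains Ifngr1 (20.1 and 15.3) and Ifngr2 (6.41 and 5.36) and the kinase Jak1 (21 and 16.7). Class I genes and their regulator Nlrc5 were likewise open in 9 of 9, with H2-K1 at 11.6 and 11.8, H2-D1 at 24.7 and 20.2 and B2m at 10.7 and 8.17. Counting a promoter with no DHS as 0, the median promoter height was 21.1 and 15.2 for the transcription factors, 14.2 and 11.6 for the interferon route and 13 and 11.1 for class I. For the 8 genes described here it was 1.21 and 1.75, and over all genes 3.99 and 2.60. Of the 3 measured genes of peptide processing, Lgmn and Ctsl were open in both and Ctss in neither.

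The other genes of the class II region were open in 2 of 5 in replicate 1 and 5 of 5 in replicate 2. Of all genes, 69.4% and 69.1% were open. H2-Oa (0.924), H2-Ob (1.09) and Btnl2 (1.40) had a promoter DHS in replicate 2 alone. Brd2 stood at 18.6 and 14.7, through the DHS that is also the outer promoter DHS of H2-DMa.

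Markers of immune cells are given beside the same background of 69.4% and 69.1% of genes open. These lists were chosen with earlier results of these data known. B cell markers were open in 2 of 5 in replicate 1 and 5 of 5 in replicate 2, with summed promoter heights of 15.7 and 16.2. Those in replicate 2 alone were the receptor chains Cd79a (1.83) and Cd79b (2.28) and Ms4a1 (0.497). The other 2, Pax5 (9.83 and 6.80) and Ebf1 (5.84 and 4.83), made up the whole sum of replicate 1 and were lower in replicate 2. T cell markers were open in 2 of 6 and 4 of 6, with sums of 0.983 and 5.92. Cd3e (0.577) and Cd3g (1.61) were in replicate 2 alone, Cd3d stood at 0.483 and 1.27, and Cd4 and Cd8a had no DHS in either. Macrophage and dendritic cell markers were open in 5 of 10 and 6 of 10, with sums of 30.3 and 23.2. There, Spi1 stood at 1.16 and 2.88, Irf8 at 10.5 and 9.65 and Zbtb46 at 17.3 and 8.05, a drop larger than that of the sum. Mrc1 (1.04) was open in replicate 2 alone, and Csf1r, Adgre1, Cx3cr1 and C1qa had no promoter DHS in either. The part of these cells in the DHSs at Cd74, H2-Eb2, H2-DMb2 and between H2-Aa and H2-Eb1 that were higher in replicate 2, or found there alone, was not tested.

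Markers of the tissue's own cells are given beside the same 69.4% and 69.1% of all genes open. Counting no DHS as 0, the median promoter height over all genes was 3.99 and 2.60. Lists this small do not test the tissue label. Adrenal cortex markers were open in 5 of 5 in both, with Nr5a1 at 9.01 and 4.09, Star at 7.55 and 4.02 and Cyp11a1 at 6.22 and 1.80, and with sums of 31.6 and 15.8. Mc2r was the exception, low in both and higher in replicate 2, at 0.458 and 0.666. Chromaffin cell markers were open in 3 of 3 in both, with Th at 1.37 and 1.13, Dbh at 1.05 and 0.799 and Chga at 5.67 and 2.48. Endothelial markers were open in 4 of 5 in each, Plvap (1.11) in replicate 1 alone and Tek (0.489) in replicate 2 alone, beside Pecam1 at 0.575 and 0.995, Cdh5 at 1.22 and 1.12 and Kdr at 4.64 and 2.93.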

How the data were processed

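For each of the 2 adrenal libraries, 2 deposited peak lists, a deposited list of FDR values and a deposited list of footprints were used, all in mm10. Heights are signal values as deposited, and their whole steps per library point to a scaling by the authors, an inference from the values. The deposited FDR (q-value) list holds values of at most 0.05, and each deposited footprint carries the same FDR of 0.01. The aligner and callers were not given in the sources used here.

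The 8 genes and all gene lists were chosen with earlier results of these data known, and 2 marker genes are not reported here. Genes came from GENCODE M21, with repeated symbols dropped, and sequences from the GRCm38.p6 reference, in which the last DHS of all 42 library and chromosome pairs fell within the chromosome. The longer peak list (130945 and 157786 DHSs) was the main one, and the shorter list (81558 and 65480) an alternative. An overlap of 1 bp made a pair. Each DHS was put in the first class that held: a promoter of a member, a promoter of another gene, exon, intron or intergenic. Sites named by position were promoter DHSs, the 5 intergenic sites of highest mean height and the 5 highest found in 1 library alone, with others chosen after their values were seen. List genes named were the first 3 of a list, those open in 1 library alone and exceptions, with a few more chosen after their values were seen. Python 3.11.15, pandas 2.3.3, pysam 0.24.0, scipy 1.17.1, statsmodels 0.14.6 and bedtools 2.31.1 were used, and the procedures were tested on simulated data. No p-value was computed, as 1 group of 2 libraries allows no test.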

Additional observations from a re-analysis of the deposited data

How the results depend on the processing

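The count of genes open in both libraries was 5, and 4 to 6 under other promoter windows, the gene's 5' end alone, the shorter list or the 50000 highest DHSs. Each library alone gave 6 on the longer list, but on the shorter list replicate 1 had 4 and replicate 2 had 6. H2-Eb2 and H2-DMb1 were the genes lost from replicate 1 there, and also among the 50000 highest DHSs. Windows of 2 kb added Cd74 to the genes open in both, through its intronic site, and the shorter list dropped H2-Eb2. The number of DHSs rose from 47 to 75 in replicate 1 and from 60 to 99 in replicate 2 with 50 kb on either side, and fell to 31 in replicate 1 among the 50000 highest. Shares of overlap stayed within their intervals, and the median log2 ratio lay between -0.56 (pairs away from promoters) and -0.01 (centred on all pairs). Of 46 promoter heights under other settings, 40 stayed within their counting interval. Heights of H2-Eb2 and H2-DMb1 in replicate 1 on the shorter list, where neither had a promoter DHS, are not among the 46. The 6 that moved were H2-Ab1 with windows of 2 kb (2.27 and 2.24) or at the gene's 5' end (4.40 and 2.19) and H2-DMa at its 5' end (18.2 and 12.8). A module count of 5, with H2-DMb1 added, came from windows of 1 kb on either side, where 2.55% of all genes held one. Matches of the CTCF consensus rose from 2 to 6 in each library with the last letter free, an alternative chosen after seeing the data. No paired analysis was possible because there is only 1 group. Depth limits what an absent DHS means: at Ciita, and at sites found in 1 library alone, weak opening could not be told from none.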
